A study of Mus musculus with 16 samples.

Results

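The genes of the synaptic vesicle and its exocytosis machinery were followed in ribosome-bound RNA of hypothalamic PNOC neurons and in RNA of the whole hypothalamic lysate. They were chosen by symbol, as the numbered families Syt, Syn, Sv2, Vamp, Stxbp, Cplx, Rims, Rab3 and Unc13 together with Syp, Synpr, Snap25, Syngr1 and Syngr3, and 56 of the 45706 gene rows carried such a symbol. The rule uses names alone and no measured value, but it was chosen with earlier results of these data known. In control pools, 31 of 54 tested genes were higher in the ribosome pulldown than in the input, led by Vamp1, Cplx1, Syngr3 and Syngr1. Lower were 13. Of all genes tested 30.1% were higher and 34.6% lower. These counts are relative to TMM scaling. With library totals 42 members were higher and 6 lower, where 60.9% and 19.0% of all genes were. By TMM scaling, 3 of 8 active-zone and priming genes were higher and 3 lower, near the shares over all genes. The SNAREs Vamp3, Vamp5 and Vamp8 and the SNARE regulator Stxbp3 were lower. Differences between the genotypes passed the test for few of these genes. In pulldown 2 of 53 were higher with the Lepr deletion label, where 0.391% of all genes were. They were Rab3c and Syn2, at log2 fold changes of 0.23 and 0.22. In input 1 of 54 was lower, Synpr at -0.57, where 0.0959% of all genes were. Each of these 3 calls was lost when certain single pools were left out.

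In background, a synaptic vesicle fuses when the vesicle SNARE synaptobrevin (Vamp1, Vamp2) zips up with Snap25 and a syntaxin on the plasma membrane. The Unc13 (Munc13) proteins help to assemble that complex, complexins clamp and then promote it, and synaptotagmins such as Syt1 trigger fusion when calcium enters. Rims and Rab3 proteins tether vesicles at the active zone, and synapsins hold the reserve vesicles together. PNOC neurons of the hypothalamus are largely GABAergic cells that make prepronociceptin, the precursor of the neuropeptide nociceptin.

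The mice carried a Cre-dependent fusion of the ribosomal protein L10a with GFP, so that anti-GFP antibodies precipitated the ribosomes of cells with Pnoc-driven Cre recombinase (bacTRAP). Each pool held the hypothalami of 4 animals, and each pool gave an input library, from the lysate before precipitation, and a pulldown library. Control pools 1 to 4 are labelled Control (Lepr-flox) and pools 5 to 8 are labelled Pnoc Lepr deletion, in which the leptin receptor gene Lepr was to be removed from Pnoc-expressing cells. The 16 libraries thus formed 4 groups of 4. All animals, C57Bl/6N in background, ate chow and were random-fed when sampled, at 12 weeks of age per the treatment protocol and at 10 to 12 weeks per the extraction protocol. The labels do not say which Cre allele the control pools carried, nor the sex of the animals. Cre driven by Pnoc marks every cell that expresses that gene, so the pulldown is a mixture of PNOC neuron types, with whatever RNA bound to the beads unspecifically.

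Library totals were 64435952 to 78623636 estimated counts. Levels between libraries are library-scaled counts with TMM factors (CPM), and levels between genes are TPM, which also divide by transcript length. Pnoc was 8.78 ± 1.25 CPM in control pulldown and 2.71 ± 0.196 CPM in control input (SD, n = 4). Lepr was 1.62 ± 0.185 CPM in control pulldown and 2.62 ± 0.171 CPM in the pulldown labelled Lepr deletion (SD, n = 4), which goes against the label in direction. The gene total covers all exons of Lepr and the sources used here do not name the removed part, so this value does not check the genotype, and the pools are called by their label throughout. All 10 astrocyte, 9 oligodendrocyte, 5 oligodendrocyte precursor, 9 microglial and 5 tanycyte and ependymal marker genes were lower in pulldown in both genotypes, and 11 of 15 neuronal and 7 of 8 GABAergic markers were higher. Of the neuronal markers 3 were lower (Map2, Meg3 and Snhg11), as was 1 of the 8 GABAergic ones. In control, 3 of 4 glutamatergic markers tested were lower too and 1 was higher. The sum of the 5 listed rose, from 243 to 259 CPM in control input to 297 to 345 CPM in control pulldown. The 15 neuronal markers summed to 7910 to 9161 CPM in control input and 6495 to 6743 CPM in control pulldown, and the 8 GABAergic ones to 1630 to 1916 and 2738 to 3378 CPM. Astrocyte markers summed to 3218 to 3601 CPM in control input and 381 to 411 CPM in control pulldown.

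Promoter sequences were read from RefSeq (GRCm38.p6) for 40 of the 56 genes, from 250 bases before to 50 bases after the annotated start. They are shown for the genes with the most positive and the most negative pulldown values, Vamp1 and Vamp8, and for Syn1 and Unc13a, which hold the left part of RE1, an element bound by the repressor REST, known for keeping neuronal genes silent in other cells. All 4 are printed 5′ to 3′ on the strand of the gene. Capitals mark GC boxes (GGGCGG), cAMP response elements (TGACGTCA), the RE1 left part (TTCAGCACC) and the RE1 right part (GGACAG), each on either strand, so that the reverse complement is also in capitals.
Vamp1 (chr6:125215331-125215630, plus strand): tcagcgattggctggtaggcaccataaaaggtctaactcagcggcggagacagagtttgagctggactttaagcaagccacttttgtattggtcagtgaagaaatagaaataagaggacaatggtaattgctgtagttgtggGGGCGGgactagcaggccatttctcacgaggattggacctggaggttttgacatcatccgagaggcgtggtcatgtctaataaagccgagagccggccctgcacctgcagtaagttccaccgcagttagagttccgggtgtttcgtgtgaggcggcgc
Vamp8 (chr6:72390618-72390917, minus strand): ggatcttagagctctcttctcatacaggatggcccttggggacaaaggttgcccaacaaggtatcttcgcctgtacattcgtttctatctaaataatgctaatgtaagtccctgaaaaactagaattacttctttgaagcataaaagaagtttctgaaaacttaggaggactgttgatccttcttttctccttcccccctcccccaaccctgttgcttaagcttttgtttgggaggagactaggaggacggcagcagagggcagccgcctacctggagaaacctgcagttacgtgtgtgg
Syn1 (chrX:20920869-20921168, minus strand): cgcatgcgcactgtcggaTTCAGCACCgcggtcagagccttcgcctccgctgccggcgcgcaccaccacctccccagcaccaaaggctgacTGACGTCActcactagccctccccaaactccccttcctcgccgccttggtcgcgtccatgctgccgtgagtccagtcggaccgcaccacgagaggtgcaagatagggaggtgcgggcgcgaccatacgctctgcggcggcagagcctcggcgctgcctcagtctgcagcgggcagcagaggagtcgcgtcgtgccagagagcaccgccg
Unc13a (chr8:71671708-71672007, minus strand): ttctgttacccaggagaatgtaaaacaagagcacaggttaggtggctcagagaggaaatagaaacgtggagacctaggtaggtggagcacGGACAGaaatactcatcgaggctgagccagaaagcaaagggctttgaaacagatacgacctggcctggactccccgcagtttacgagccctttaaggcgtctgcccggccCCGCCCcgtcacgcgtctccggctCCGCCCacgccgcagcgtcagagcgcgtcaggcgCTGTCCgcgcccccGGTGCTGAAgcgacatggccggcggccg

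The Vamp1 window held 1 GC box and the Vamp8 window none of the searched motifs. In Syn1 the RE1 left part started at base 19 and a cAMP response element at base 92 of the window. In Unc13a the RE1 left part started at base 273, the right part at bases 91 and 259, and GC boxes at bases 201 and 225. The RE1 left part was in 2 of the 40 windows (5%), those of Syn1 and Unc13a, and in 0.359% of all 27025 promoters of this length. A share resting on 2 windows is uncertain, and its difference from all promoters was not tested. The right part was in 20% against 22.1%. GC boxes were in 31 of the 40 windows (77.5%) against 35.9% of all promoters, TATAAA in 5% against 14.2%, and the E-box CACGTG in 15% against 7.24%. The windows were also richer in G and C, with a median of 63.2% against 52.7% over all promoters, a difference that moves with the GC box count. The part of base composition in these shares was not tested. A match is a description of the letters and not a bound site.

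Per unit of length, Snap25 had the highest level of all members in every group, followed by Vamp2. Snap25 encodes the plasma membrane SNARE of the synapse and had 14865 ± 789 TPM in control pulldown and 3993 ± 210 TPM in control input (SD, n = 4). Vamp2, the main vesicle SNARE, had 2114 ± 41.2 and 604 ± 15.2 TPM. Other high levels in control pulldown were those of Syp at 493 ± 87.2, Rab3a at 483 ± 5.83, Syt1 at 445 ± 72.9, Rab3c at 432 ± 26.7 and Syn1 at 424 ± 11.8 TPM. From Syp to Syn1, neighbours in that order lay within the spread between pools. Altogether 21 members had a mean of at least 100 TPM in control pulldown and 10 in control input. At the other end, Cplx3, Cplx4, Syt8, Syt15 and Unc13d stayed under 1 TPM in all 16 libraries. The 56 members together took 2.33% ± 0.0348 of all TPM in control pulldown and 0.683% ± 0.0142 in control input, and 2.22% ± 0.0473 and 0.722% ± 0.0106 in the pools labelled Lepr deletion (SD, n = 4). Most of that sum was Snap25, with 63.9% ± 2.41 of the members' TPM in control pulldown and 58.5% ± 1.84 in control input. These shares carry no TMM scaling, and on log2(TPM + 1) the median of all genes tested was 0.75 higher in control pulldown than in control input. By counts, Snap25 alone gave 1.19% ± 0.0917 of control pulldown libraries and 0.431% ± 0.0297 of control input libraries.

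**Figure D1:**
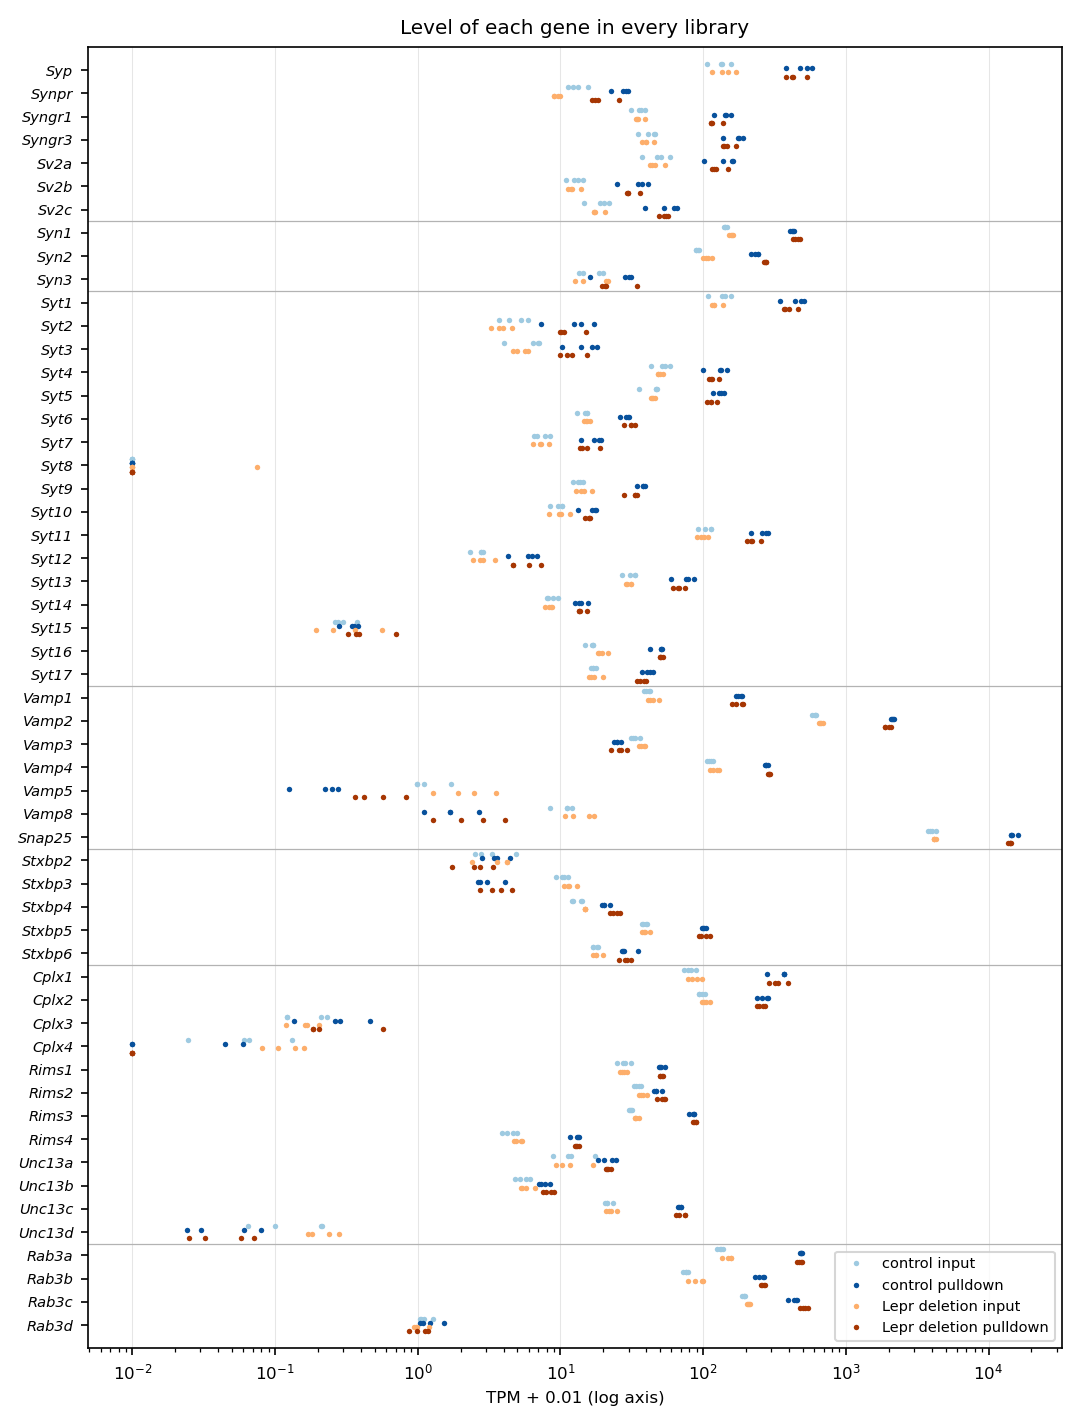
TPM plus 0.01 (log axis) of each gene shown, in every library, with the 4 groups in 4 colours and grey lines between the role groups. Snap25 stands farthest to the right in all groups, and Syt8, Cplx4 and Unc13d lie at the left edge.

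The first comparison asked which of these RNAs the precipitated ribosomes of control pools carried relative to the whole tissue. Differences were tested with edgeR's quasi-likelihood test, two-sided, with Benjamini-Hochberg adjustment over all genes tested at 0.05, and are given as log2 fold changes with standard errors (SE). Of 54 members tested, 31 were higher and 13 lower in pulldown, where 30.1% of all 17570 genes tested were higher and 34.6% lower. The median of the members was 0.33 and that of all genes tested -0.02. Of the members 4 were higher by more than 2-fold, against 1.41% of all genes, and 6 lower by more than 2-fold, against 18.5%. All directions here are relative to TMM scaling. With library totals the median over all genes shifted by 0.55, and 42 members were higher and 6 lower, where 60.9% and 19.0% of all genes were. With limma on log2(TPM + 1) it shifted by 0.77, and 45 members were higher and 4 lower, where 72.3% and 13.5% of all genes were. In tissue RNA a lower level can come from fewer cells of a type or from less RNA per cell, and these cannot be told apart.

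In the pools labelled Lepr deletion, 53 members were tested, of which 32 were higher and 13 lower in pulldown, where 28.8% of all 17423 genes tested were higher and 32.8% lower. The median of the members was 0.37 and that of all genes -0.01. The call was higher in both genotypes for 30 members and lower in both for 11, and no member was called in opposite directions. The genotypes share no library in these tests. Library totals gave 41 members higher and 7 lower here, against 57.4% and 19.7% of all genes, and limma on log2(TPM + 1) gave 44 and 4, against 70.9% and 13.4%.

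**Figure D2:**
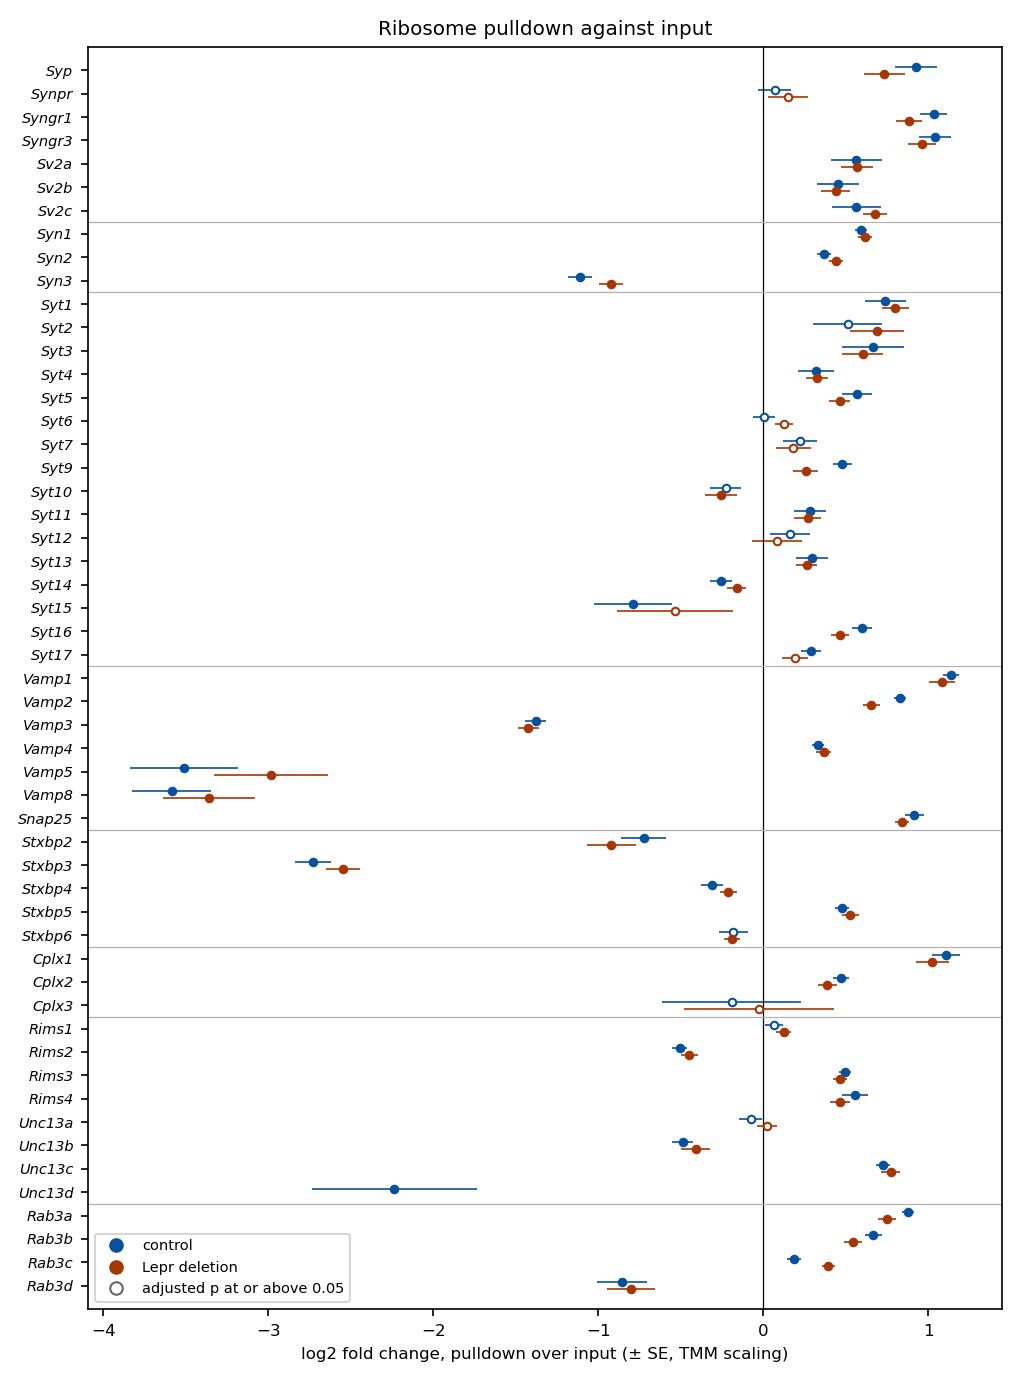
Log2 fold change of pulldown over input (horizontal axis, points with ± SE) for each tested gene shown, in control pools (blue) and pools labelled Lepr deletion (brown), with open points for an adjusted p at or above 0.05. Vesicle membrane proteins lie to the right of 0, and Vamp5, Vamp8, Stxbp3 and Unc13d lie far to the left.

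All 7 proteins of the vesicle membrane had positive values in both genotypes, and 6 of them passed the test. Syp, synaptophysin, the vesicle membrane gene with the highest mean TPM, had 203, 260, 255 and 298 CPM in control input and 389, 470, 531 and 567 CPM in control pulldown, in the order of pools 1 to 4. It had 317, 263, 245 and 206 CPM in input and 533, 421, 407 and 365 CPM in pulldown of pools 5 to 8. Pulldown and input did not overlap in either genotype (log2 fold change 0.93, SE 0.13, edgeR adjusted p = 5e-05 in control, and 0.74, SE 0.12, adjusted p = 0.000175 in pools labelled Lepr deletion). Syngr1, synaptogyrin, a relative of synaptophysin, had 97.2, 113, 118 and 125 CPM in control input and 206, 240, 237 and 257 CPM in control pulldown. In pools 5 to 8 it had 121, 102, 100 and 102 CPM in input and 229, 190, 188 and 182 CPM in pulldown. The groups again did not overlap, at 1.03 (SE 0.08, edgeR adjusted p = 6.47e-07) and 0.88 (SE 0.08, adjusted p = 4.69e-07). Syngr3 was higher by 1.04 and 0.96, and the Sv2 genes, which encode the vesicle glycoproteins that also serve as botulinum toxin receptors, by 0.46 to 0.56 in control and 0.44 to 0.68 in pools labelled Lepr deletion. Synpr, synaptoporin, did not pass in either genotype, at 0.07 (95% interval -0.15 to 0.29) and 0.15 (-0.12 to 0.42).

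The synapsins split. Syn1, a vesicle-tethering phosphoprotein, had 360, 345, 351 and 351 CPM in control input and 569, 532, 542 and 508 CPM in control pulldown, and 359, 358, 374 and 363 against 537, 560, 589 and 557 CPM in pools 5 to 8. Every pulldown library was above every input library, at 0.59 (SE 0.04, edgeR adjusted p = 1.14e-07) and 0.62 (SE 0.04, adjusted p = 4.55e-08). Syn2 was higher by 0.37 and 0.44. Syn3 was lower by count, with 39.6, 39.4, 38.2 and 35.5 CPM in control input and 15.5, 18.6, 18.7 and 18.8 CPM in control pulldown (-1.11, SE 0.07, edgeR adjusted p = 1.01e-07). Pools 5 to 8 gave it 39.7, 36.3, 36 and 32 CPM in input and 19.3, 18.1, 20.6 and 18.5 CPM in pulldown (-0.92, SE 0.07, adjusted p = 1.09e-07). That value of Syn3 depended on the scaling and on the handling of transcript length. In TPM Syn3 was 26.5 ± 7.05 in control pulldown against 16.6 ± 3.12 in control input (SD, n = 4). By limma on log2(TPM + 1) it was at 0.62, where the median of all genes tested was 0.75. With length-rescaled counts it stayed negative, at -0.29, and did not pass (edgeR adjusted p = 0.271). The effective length behind its counts was shorter in control pulldown by -0.79 on the log2 scale, lower than in all but 0.153% of 11733 genes. The Syn3 gene (ENSMUSG00000059602, chr10:86048746-86498926) spans Timp3 and Fbxo7, and the sources used here do not state the strand setting of the counting, which leaves its counts uncertain. Syn1 likewise overlaps Araf and Timp1, and Syn2 overlaps Timp4.

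Among the 16 synaptotagmins tested, 9 were higher and 2 lower in each genotype. Syt1, the calcium sensor of fast release and the synaptotagmin with the highest mean TPM, had 379, 484, 502 and 557 CPM in control input and 649, 810, 873 and 921 CPM in control pulldown. Its values in pools 5 to 8 were 472, 394, 388 and 401 CPM in input and 851, 679, 712 and 659 CPM in pulldown. Groups did not overlap, at 0.74 (SE 0.12, edgeR adjusted p = 0.000227) and 0.80 (SE 0.08, adjusted p = 1.87e-06), and pool 1 was lowest and pool 5 highest within their groups. Syt16, a member without calcium binding, had 34.2, 30.7, 35 and 34.2 CPM in control input and 46.3, 53.4, 53.1 and 53.1 CPM in control pulldown, with no overlap (0.60, SE 0.06, edgeR adjusted p = 5.13e-06). In pools 5 to 8 its values were 36.5, 40.1, 37.7 and 35.8 CPM in input and 53.3, 52.5, 52.8 and 50.1 CPM in pulldown (0.47, SE 0.05, edgeR adjusted p = 3.97e-06). Syt3, Syt4, Syt5, Syt9, Syt11 and Syt13 were higher in both genotypes, at 0.28 to 0.67 in control and 0.26 to 0.60 in pools labelled Lepr deletion. The upper ends were those of Syt3, which was at 0.31 and 0.29 with length-rescaled counts. Syt17 passed in control alone (0.29, against 0.19 with an adjusted p of 0.0508 by edgeR) and Syt2 in pools labelled Lepr deletion alone (0.69, against 0.51 with an adjusted p of 0.0511), and neither difference between genotypes passed.

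Other synaptotagmins were lower or passed in neither genotype. Syt14 had 47.5, 53.9, 48.3 and 55.9 CPM in control input and 40.5, 43.3, 42.7 and 47.6 CPM in control pulldown, and 51.9, 46.3, 45.1 and 47.9 against 42.1, 42.6, 41.3 and 46.2 CPM in pools 5 to 8. These ranges overlapped, and the values of -0.26 (SE 0.07, edgeR adjusted p = 0.00565) and -0.16 (SE 0.06, adjusted p = 0.0283) turned to 0.29 and 0.30 with library totals. Without pool 2 the control value did not pass (edgeR adjusted p = 0.0506), and without pool 5, 6 or 7 the other did not (adjusted p = 0.117, 0.0878 and 0.0688). Syt15 passed as lower in control (-0.79, SE 0.24, edgeR adjusted p = 0.0114) with 0.817 ± 0.146 CPM in input falling to 0.478 ± 0.0649 CPM in pulldown (SD, n = 4), and it turned to 0.04 as log2(TPM + 1). Syt10 passed as lower in pools labelled Lepr deletion (-0.26) and not in control (-0.23), and turned to 0.20 and 0.32 with library totals. Syt6, Syt7 and Syt12 passed in neither genotype. Syt8 had at most 2 counts in a library and was not tested.

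The SNAREs showed the widest range of any role group. Snap25 had 5602, 5292, 5138 and 4837 CPM in control input and 11142, 9775, 9587 and 9351 CPM in control pulldown. In pools 5 to 8 it had 5443, 4885, 5030 and 4885 CPM in input and 9367, 8995, 9221 and 8944 CPM in pulldown. All pulldown values lay above all input values, at 0.92 (SE 0.06, edgeR adjusted p = 8e-08) and 0.84 (SE 0.04, adjusted p = 1.39e-09). Vamp1, the synaptobrevin of fast synapses in brainstem and spinal cord, had 84.6, 90.4, 91.1 and 83.5 CPM in control input and 189, 200, 202 and 188 CPM in control pulldown. Pools 5 to 8 gave it 102, 86.8, 84.8 and 81.9 CPM in input and 208, 186, 199 and 167 CPM in pulldown. Without any overlap, Vamp1 gave the highest log2 fold change of the members tested, 1.14 (SE 0.05, edgeR adjusted p = 1.74e-09) and 1.08 (SE 0.08, adjusted p = 6.36e-08). Vamp2 was higher by 0.83 and 0.66, and Vamp4, a SNARE of the trans-Golgi network and endosomes, by 0.33 and 0.37.

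Vamp3, Vamp5 and Vamp8 were lower in pulldown. Vamp3, cellubrevin, the broadly expressed relative of Vamp2, had 54.8, 47, 50 and 51 CPM in control input and 21.6, 19.4, 19.5 and 18.3 CPM in control pulldown, and 52.3, 55.2, 55 and 52.2 against 18, 21.3, 19.4 and 21.9 CPM in pools 5 to 8. Input and pulldown were far apart in both genotypes, at -1.38 (SE 0.06, edgeR adjusted p = 5.35e-09) and -1.42 (SE 0.07, adjusted p = 5.72e-10). Vamp8, endobrevin, a SNARE of secretory and lysosomal fusion outside neurons, had 6.14, 4.31, 5.72 and 5.63 CPM in control input and 0.711, 0.427, 0.426 and 0.275 CPM in control pulldown (-3.58, SE 0.24, edgeR adjusted p = 1.24e-07). Vamp5, first described in muscle, was 1.4 ± 0.403 CPM in control input and 0.124 ± 0.0421 CPM in control pulldown (SD, n = 4), at -3.51 (SE 0.33, edgeR adjusted p = 2.13e-06). In pools labelled Lepr deletion Vamp8 and Vamp5 were at -3.36 and -2.98. These 3 stayed negative with library totals and TPM, at -0.83 and -0.40 for Vamp3, -3.04 and -2.08 for Vamp8 and -2.97 and -0.84 for Vamp5 in control. Glial, microglial and vascular markers were lower in the same pulldown libraries, at medians of -4.13 for astrocytes, -4.38 for microglia and -2.23 for vascular genes, and their part in the Vamp values was not tested.

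Among the syntaxin-binding genes, Stxbp5 was higher and Stxbp2, Stxbp3 and Stxbp4 lower in both genotypes. Stxbp5, tomosyn, which competes with synaptobrevin for the SNARE complex, had 226, 223, 206 and 222 CPM in control input and 329, 305, 299 and 305 CPM in control pulldown. Its values in pools 5 to 8 were 227, 206, 210 and 211 CPM in input and 294, 302, 315 and 328 CPM in pulldown. Input and pulldown did not overlap, at 0.48 (SE 0.04, edgeR adjusted p = 1.32e-06) and 0.53 (SE 0.05, adjusted p = 8.17e-07).

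Stxbp3, a syntaxin-binding protein known from fat and other peripheral cells, was lower. It had 19.1, 15.6, 17.3 and 18.5 CPM in control input and 2.54, 2.4, 3.31 and 2.53 CPM in control pulldown, and 16.3, 20.2, 17.1 and 17.1 against 3.03, 2.56, 3.39 and 3.22 CPM in pools 5 to 8. Pulldown lay far below input, at -2.73 (SE 0.11, edgeR adjusted p = 1.74e-09) and -2.55 (SE 0.10, adjusted p = 1.78e-10), and at -2.18 and -2.09 with library totals. Stxbp2, known from immune-cell granule release, was at -0.72 and -0.92, and at 0.08 and -0.37 as log2(TPM + 1). Stxbp4, at -0.31 and -0.21, turned to 0.24 and 0.25 with library totals. Stxbp6, amisyn, was at -0.18 and -0.19, of which only the value of pools labelled Lepr deletion passed (edgeR adjusted p = 0.0845 and 0.00386), and it turned to 0.37 and 0.27 with library totals.

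The complexins changed their order. Cplx1 had 117, 135, 145 and 127 CPM in control input and 241, 304, 304 and 299 CPM in control pulldown, and 154, 133, 127 and 120 against 326, 282, 259 and 229 CPM in pools 5 to 8. It was higher without overlap, at 1.11 (SE 0.08, edgeR adjusted p = 4.02e-07) and 1.03 (SE 0.10, adjusted p = 1.12e-06). Cplx2 was higher by less, at 0.47 and 0.39. Per length, Cplx1 was thus below Cplx2 in control input, with a ratio of their TPM of 0.832 (range 0.713 to 0.954), and above it in control pulldown, at 1.30 (1.17 to 1.43). Pools labelled Lepr deletion gave 0.838 and 1.32. The retinal forms Cplx3 and Cplx4 were close to absent, at 0.276 ± 0.135 TPM and 0.0211 ± 0.0251 TPM in control pulldown (SD, n = 4). Cplx3 did not pass, and Cplx4 had at most 10 counts in a library and was not tested.

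Of 8 active-zone and priming genes 3 were higher and 3 lower in control pools. That is near the shares over all genes tested, of which 30.1% were higher and 34.6% lower. Unc13c, the Munc13 form known from the cerebellum, had 151, 137, 143 and 139 CPM in control input and 251, 232, 240 and 232 CPM in control pulldown, and 158, 135, 138 and 132 against 237, 232, 250 and 251 CPM in pools 5 to 8. Pulldown was above input throughout, at 0.73 (SE 0.04, edgeR adjusted p = 3.68e-08) and 0.77 (SE 0.06, adjusted p = 9.34e-08). Rims3, a short Rim form and the member of its group with the highest mean TPM, had 151, 159, 157 and 151 CPM in control input and 215, 226, 219 and 221 CPM in control pulldown. In pools 5 to 8 it had 162, 165, 158 and 161 CPM in input and 233, 227, 216 and 222 CPM in pulldown. Rims3 libraries did not overlap (0.49 and 0.46, SE 0.04 each, edgeR adjusted p = 3.03e-07 and 5.97e-07). Rims4 was higher by 0.56 and 0.47. Unc13a, the main priming factor of forebrain synapses, did not pass in either genotype, at -0.08 (95% interval -0.23 to 0.08) and 0.02 (-0.11 to 0.15). Rims1, the long Rim scaffold, was at 0.07 and 0.12 and passed in pools labelled Lepr deletion alone (edgeR adjusted p = 0.306 and 0.0292), and it turned to -0.10 and -0.03 with length-rescaled counts.

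Rims2, the other long Rim scaffold, was lower relative to TMM scaling. It had 134, 126, 132 and 122 CPM in control input and 89.8, 98.4, 89.6 and 88.3 CPM in control pulldown, and 128, 125, 133 and 141 against 90.8, 99.7, 99.2 and 99.1 CPM in pools 5 to 8. The groups did not overlap, at -0.51 (SE 0.05, edgeR adjusted p = 2.21e-06) and -0.45 (SE 0.05, adjusted p = 5.61e-06), but the values were 0.04 and 0.01 with library totals and 0.46 and 0.44 as log2(TPM + 1). Unc13b was at -0.49 and -0.41 and turned likewise, to 0.06 and 0.05 with library totals. Unc13d, of immune-cell granule release, was 0.0508 ± 0.0282 CPM in control pulldown and 0.24 ± 0.0839 CPM in control input (SD, n = 4), at -2.24 (SE 0.50, edgeR adjusted p = 0.0018). Several of its libraries lay at or under the level of 3 counts, 0.0321 to 0.0562 CPM.

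The Rab3 GTPases, which recruit Rims to vesicles, were higher except for Rab3d. Rab3a had 129, 128, 133 and 121 CPM in control input and 241, 237, 236 and 236 CPM in control pulldown, and 127, 138, 142 and 134 against 243, 239, 222 and 212 CPM in pools 5 to 8. Pulldown libraries lay above input libraries in every pool, at 0.88 (SE 0.04, edgeR adjusted p = 3.09e-09) and 0.75 (SE 0.05, adjusted p = 6.72e-08). Rab3b was higher by 0.67 and 0.54. Rab3c had the highest mean TPM of the 4 over all libraries and was higher by only 0.19 in control (SE 0.04, edgeR adjusted p = 0.00182) and 0.40 in pools labelled Lepr deletion (SE 0.04, adjusted p = 1.93e-06). The ratio of Rab3a to Rab3c in TPM was accordingly 0.686 ± 0.0311 in control input and 1.12 ± 0.0619 in control pulldown, and 0.719 ± 0.0486 and 0.934 ± 0.0842 in pools labelled Lepr deletion (SD, n = 4). Rab3d, a form of exocrine and other secretory cells, had 3.05, 3.28, 3.77 and 3.07 CPM in control input and 1.7, 2.3, 1.83 and 1.55 CPM in control pulldown, and 2.8, 2.63, 2.59 and 2.67 against 1.69, 1.32, 1.73 and 1.44 CPM in pools 5 to 8. It was lower without overlap (-0.85 and -0.80, SE 0.15 each, edgeR adjusted p = 0.000376 and 0.000331), although at 0.06 and 0.01 as log2(TPM + 1).

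**Figure D3:**
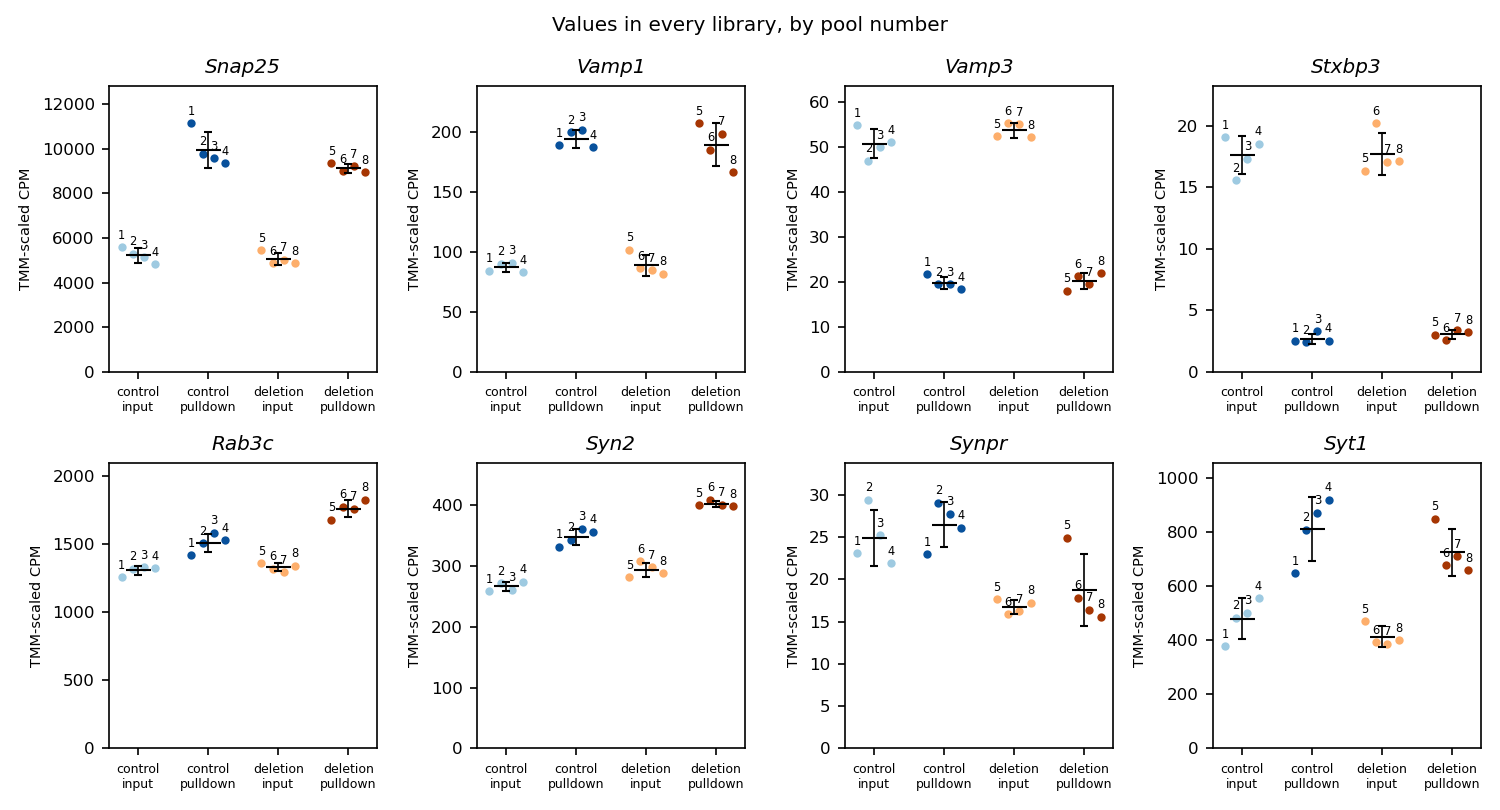
TMM-scaled CPM of 8 genes in each library (points, with the pool number) by group, with the mean (line) and SD (bar) of 4 pools. Snap25 and Vamp1 are higher in pulldown, Vamp3 and Stxbp3 lower, and in Synpr and Syt1 the pulldown values of pools 1 and 5 lie toward those of the other genotype.

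Other presynaptic genes were counted in the same way. Of 87 further genes of the SNARE cycle, active zone, vesicle trafficking, other vesicle proteins and transmitter loading, 85 were tested in control pools, where 49 were higher and 19 lower with a median of 0.27, against 30.1% and 34.6% of all genes. In pools labelled Lepr deletion 86 were tested, of which 52 were higher and 17 lower with a median of 0.26, against 28.8% and 32.8% of all genes. Transmitter-loading genes were higher in 11 of 13 in control, including Atp6v1b2, a subunit of the vesicle proton pump, at 0.61 (SE 0.04, edgeR adjusted p = 3.59e-08). Ap2m1 of the clathrin adaptor and Synj1, the lipid phosphatase synaptojanin, were higher by 0.62 and 0.54. Snap23, the relative of Snap25 found in most other cells, was at -2.72 in both genotypes (SE 0.12, edgeR adjusted p = 3.35e-09 in control, and SE 0.07, adjusted p = 2.45e-12 in pools labelled Lepr deletion).

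The next comparison asked which of these ribosome-bound RNAs differed between pools labelled Lepr deletion and control pools. Of 53 members tested 2 were higher and none lower, where 0.391% of all 16859 genes tested were higher and 0.249% lower. At an unadjusted p under 0.05, 14 of the 53 members and 3340 of all genes (19.8%) were counted. The 95% interval of the difference lay within ±0.5 on the log2 scale for 44 of the 53 members and within ±1 for 50, and the 3 wider ones were the scarce Vamp5, Vamp8 and Cplx3. Both calls were small. Rab3c had 1420, 1507, 1585 and 1531 CPM in control pulldown and 1682, 1778, 1764 and 1828 CPM in that of pools 5 to 8. All values of pools 5 to 8 were above all control values (0.23, SE 0.04, edgeR adjusted p = 0.0489). Syn2 had 332, 344, 362 and 357 CPM in control pulldown and 400, 409, 401 and 399 CPM in the other, again with no overlap (0.22, SE 0.04, edgeR adjusted p = 0.0487). In input the same genes differed by 0.02 (Rab3c, adjusted p = 0.827 by edgeR) and 0.14 (Syn2, adjusted p = 0.182). Both calls were lost without pool 2, 3, 4, 6, 7 or 8, where the edgeR adjusted p rose to 0.0921 to 0.206 for Rab3c and 0.094 to 0.205 for Syn2, and with library totals (0.0641 and 0.0644). Without any 1 pool the log2 difference stayed at 0.20 to 0.26 for Rab3c and 0.19 to 0.24 for Syn2. In the authors' deposited table both passed, at log2 fold changes of 0.24 (adjusted p = 0.00132) and 0.22 (adjusted p = 0.000418), among 3 members higher and 2 lower, where 4.37% and 3.15% of the genes with an adjusted p were called.

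**Figure D4:**
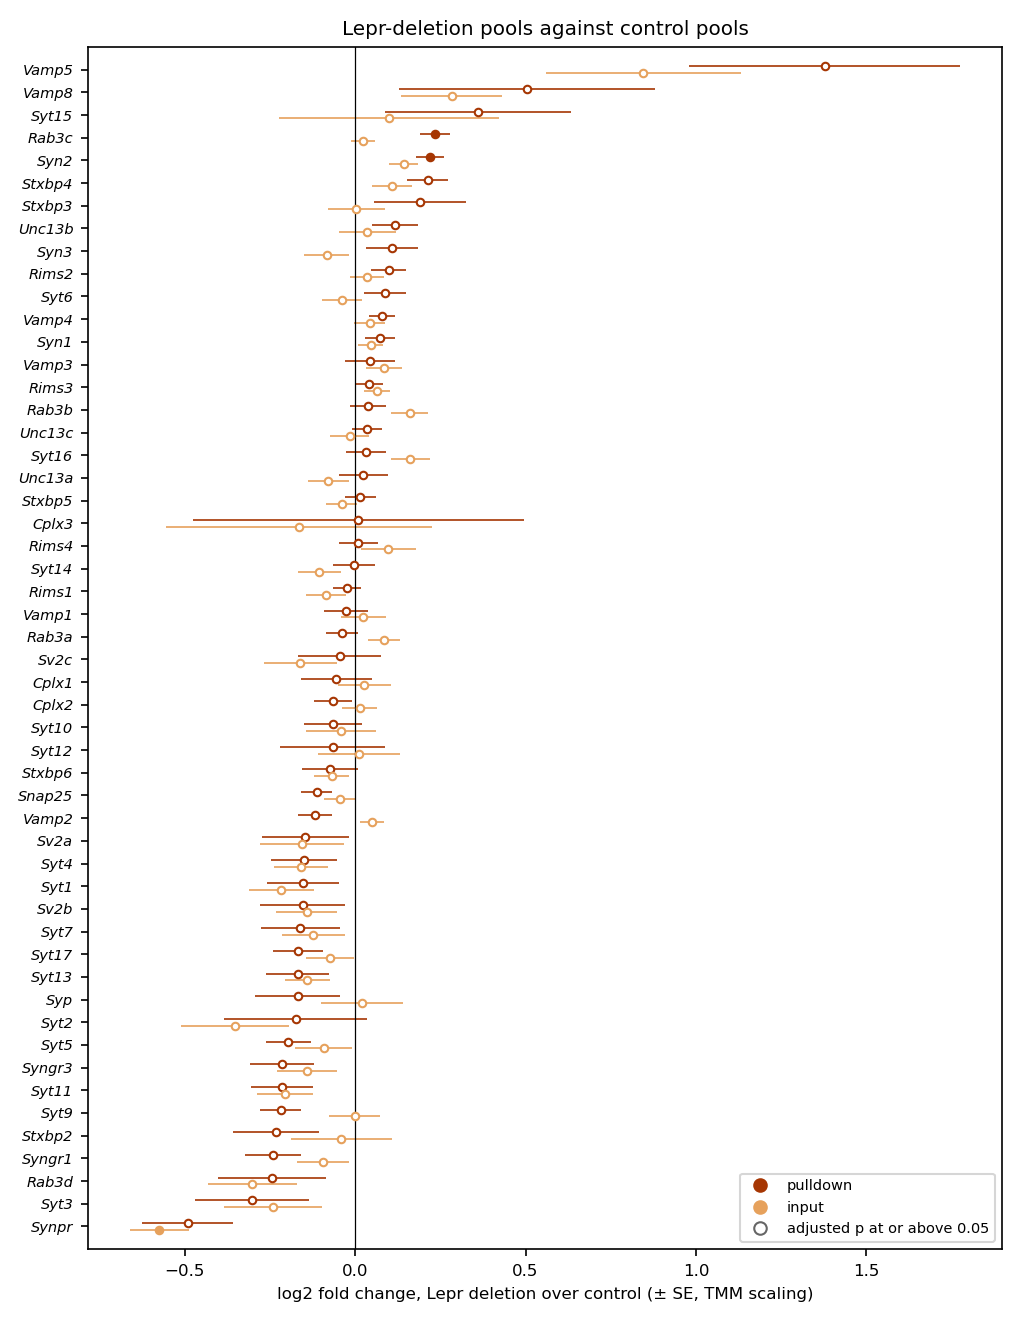
Log2 fold change of pools labelled Lepr deletion over control pools (horizontal axis, points with ± SE) for the genes shown, in pulldown (brown) and input (orange), with open points for an adjusted p at or above 0.05. Rab3c and Syn2 in pulldown and Synpr in input are the 3 filled points.

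The vesicle membrane proteins and synaptotagmins leaned to lower values in the pulldown labelled Lepr deletion without passing the test. All 7 vesicle membrane genes and 13 of 16 synaptotagmins had negative values, with medians of -0.17 and -0.16. Of all genes tested 52.4% were negative, with a median of -0.01. In input 6 of 7 and 13 of 16 were negative too, with medians of -0.14 and -0.10. The pulldown-to-input difference changed between genotypes by medians of -0.02 and -0.04. These groups were named after their values were seen. In pulldown 3 of 3 synapsins, 6 of 7 active-zone and priming genes, 4 of 6 syntaxin-binding genes and 4 of 7 SNAREs were positive. Of all 53 members 30 were negative. Pools also differed in the members. The counts by pool that follow were made for the members only and have no share over all genes beside them. Of the 53 members, pool 1 was the lowest control pulldown library in 28 and pool 5 the highest library of its group in 26, and both held for 21 members, among them Syp, Synpr, Syngr1, Syngr3, Sv2a, Sv2b, Sv2c and Syt1. The reverse also occurred, with pool 1 highest in 16, pool 5 lowest in 11 and both in 5. Pool 8 was the lowest of its group in 25. In input pool 1 was lowest in 23 and pool 5 highest in 28 of 54. Without pool 5, 3 members were higher and 6 lower, where 3.69% of all genes were then higher and 3.69% lower. Without pool 1, 3 were higher and 2 lower, where 1.53% and 1.72% of all genes were. Leaving out both pools, a choice made because their values lay toward the other genotype, gave 4 members higher (Rab3c, Stxbp4, Syn2, Vamp5) and 19 lower at -0.73 to -0.14, where 9.35% of all genes were then higher and 10.5% lower. Since the pools were singled out by these values, that count describes how much they weigh and is no test of the genotype. Y-linked genes, which follow the share of males in a pool, summed to 40.0 to 83.5 CPM in control pulldown and 67.0 to 155 CPM in the pulldown labelled Lepr deletion, and their part in these differences was not tested.

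In input, 54 members were tested between the genotypes, of which 1 was lower and none higher, where 0.0959% of all 17735 genes tested were lower and 0.135% higher. At an unadjusted p under 0.05, 9 of the 54 members and 14.0% of all genes were counted, and DESeq2 also called 1 member lower and none higher. That member was Synpr, a synaptophysin relative found in subsets of neurons. It had 23.1, 29.4, 25.3 and 21.9 CPM in control input and 17.6, 15.9, 16.2 and 17.2 CPM in input of pools 5 to 8. Every value of pools 5 to 8 was below every control value (-0.57, SE 0.09, edgeR adjusted p = 0.0137). In pulldown it had 23, 29.1, 27.8 and 26.1 CPM in control pools and 24.9, 17.8, 16.4 and 15.6 CPM in pools 5 to 8, and pool 5 overlapped the controls (-0.49, SE 0.13, edgeR adjusted p = 0.0964). The input call was lost without pool 3, 6 or 7 (edgeR adjusted p = 0.0699, 0.0863 and 0.0567), where the log2 difference was -0.57, -0.55 and -0.56. Without pool 1, 4 members were lower, where 1.36% of all genes were. The 95% interval of the input difference lay within ±0.5 for 45 of the 54 members and within ±1 for 52. The authors' deposited table also gave Synpr as lower in input (log2 fold change -0.57, adjusted p = 4.18e-07) as the only one of 51 members with an adjusted p that was called, where 1.04% of all such genes were lower.

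Whether the pulldown-to-input difference itself changed with the label was tested as an interaction over all 16 libraries. No member passed of 54 tested, where 1 gene of 18530 was higher and 1 lower (0.0054% each) and 8.96% of all genes had an unadjusted p under 0.05. By unadjusted p under 0.05 there were 3 members, and DESeq2 called none. The smallest p was that of Rab3c, whose enrichment was larger by 0.20 (SE 0.05, edgeR adjusted p = 0.391) in pools labelled Lepr deletion. Next came Vamp2 at -0.18 (SE 0.07, edgeR adjusted p = 0.461) and Syt9 at -0.23 (SE 0.10, adjusted p = 0.512). Rab3a, Syt16 and Rab3b followed at -0.14, -0.14 and -0.13. Syt9 had 42.6, 42.6, 38.4 and 40.9 CPM in control pulldown and 37, 31.5, 35.3 and 36.3 CPM in pools 5 to 8, against 28.8, 31.4, 27.2 and 29.3 and 26.3, 28.4, 28.3 and 33.4 CPM in input, so that pulldown ranges of the genotypes did not overlap while input ranges did. Vamp2 had 1838, 1801, 1750 and 1693 CPM in control pulldown and 1749, 1694, 1533 and 1498 CPM in pools 5 to 8, with overlapping ranges, against 988, 991, 956 and 1007 and 1025, 979, 1054 and 1022 CPM in input. The 95% interval of the interaction lay within ±0.5 for 44 of 54 members and within ±1 for 49. Without pools 1 and 5 Rab3c passed (0.22, edgeR adjusted p = 0.0452), where 0.419% of all genes were then higher. Those pools were singled out by their values, so that pass is no test of the genotype.

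Of the further presynaptic genes, Erc1, an active-zone scaffold, was the 1 of 84 tested that was higher in the pulldown labelled Lepr deletion (0.23, SE 0.04, edgeR adjusted p = 0.0494). None of 85 passed edgeR's test in input and none of 86 in the interaction. At an unadjusted p under 0.05, 36 of 84 were counted in pulldown, 22 of 85 in input and 13 of 86 in the interaction, against 19.8%, 14.0% and 8.96% of all genes. Sypl, a synaptophysin-like gene, Slc17a6, the vesicular glutamate transporter of hypothalamic neurons, and Bsn, bassoon, were at -0.31, -0.36 and 0.39 in pulldown without passing (edgeR adjusted p = 0.0604, 0.0684 and 0.0813).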

How the data were processed

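RNA of 16 libraries was read from the authors' deposited tables, which give estimated counts, length-rescaled estimated counts and TPM for each gene and library. Per the submitters' processing notes, Salmon 1.10.1, DESeq2 1.38.3 and the build GRCm38 were used. Trimming, annotation release and strand setting are not given in the sources used here. The authors' deposited table of comparisons holds log2 fold changes and adjusted p-values, which were only quoted.

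The estimated counts, rounded to whole numbers, went into edgeR 4.0.16 in R 4.3.3 (quasi-likelihood, TMM, filterByExpr with a minimum count of 10 and a minimum total of 15, two-sided, Benjamini-Hochberg adjustment over all genes tested at 0.05). Each of 5 comparisons used only its own libraries, and the interaction used all 16. The fits were tested on simulated data. Alternatives were DESeq2 1.42.0 and limma 3.58.1 on log2(TPM + 1) and log2(TPM + 0.1), other scalings, filters and counts, removal of mitochondrial genes, all 16 libraries in one fit, a block for pool, and each pool left out.

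A level of 3 counts corresponded to 0.0321 to 0.0562 CPM, and 95% intervals come from the fits. No pair of libraries within a group agreed within sampling noise (chi-square per degree of freedom 8.16 to 49.9 over 24 pairs). Pools are separate sets of animals, so p-values measure the spread between pools and not between single animals. Input and pulldown of 1 pool came from 1 lysate, per the labels' extraction protocol, which pairs them. Their deviations from the group means correlated at 0.0446 to 0.364, over 0.1 in 6 of 8 pools.

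Values per library are given in each role group for the gene with the highest mean TPM and those with the smallest p in either direction between pulldown and input, and for every gene that passed between genotypes or in the interaction, otherwise the 6 smallest p. As exceptions, Rab3b is given by its log2 fold changes alone, and the full values of Rab3c and Syn2 are given in pulldown only. The members, lists and rules were chosen with earlier results of these data known. A member with no values of its own in the text is included in the counts, medians and sums and is not reported here.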

Additional observations from a re-analysis of the deposited data

Results flagged for a closer look

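In 11 of the 100 groups of 4 libraries examined, over 25 named genes, a single pool lay apart from the others of its group by more than Dixon's 95% critical value for 4 samples. Chance gives this in about 1 in 20 groups, and libraries of 1 pool are not independent between genes. Pool 5 stood high for Syngr1, a vesicle membrane gene, in input at 121 CPM against 100 to 102 in the other pools labelled Lepr deletion, and in pulldown at 229 CPM against 182 to 190. It also stood high for the calcium sensor Syt1 in input, at 472 CPM against 388 to 401, and low for the active-zone gene Rims2 in pulldown, at 90.8 CPM against 99.1 to 99.7. Pool 1 stood low in control pulldown for Syn3, at 15.5 CPM against 18.6 to 18.8, for Syt16, at 46.3 CPM against 53.1 to 53.4, and for the complexin Cplx1, at 241 CPM against 299 to 304. In control input it was low for Rab3c, at 1258 CPM against 1321 to 1332. Pool 3 was high for Stxbp3 in control pulldown, at 3.31 CPM against 2.40 to 2.54, and low for Stxbp5 in control input, at 206 CPM against 222 to 226. Pool 2 was high for Rims2 in control pulldown, at 98.4 CPM against 88.3 to 89.8. Thus 8 of the 11 values belonged to pools 1 and 5. This count was made for the named genes only and has no share over all genes beside it.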

How the results depend on the processing

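Counts of members higher in pulldown stayed within 1.5 times under all alternatives, and counts of members lower depended on scaling. With 13 lower in each genotype as reported, library totals gave 6 in control and 7 in pools labelled Lepr deletion, limma on log2(TPM + 0.1) gave 5 and 4, and limma on log2(TPM + 1) gave 4 and 4. Leaving out 1 pool gave 27 to 34 higher and 11 to 15 lower in control, and 30 to 32 and 11 to 13 in pools labelled Lepr deletion. With a replicate block for pool, 33 were higher and 15 lower in control and 34 and 13 in the other, none passed in the interaction, and no call of a named gene changed.

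Among the genes given library by library, directions turned for 4 that were lower as reported, beside those named with the results. In the order log2(TPM + 0.1) and log2(TPM + 1), Syn3 was at 0.65 and 0.62 in control and 0.45 and 0.43 in pools labelled Lepr deletion, and Rab3d at 0.11 and 0.0632, and at 0.0176 and 0.0104. Syt14 was at 0.29 with library totals, then 0.67 and 0.62, in control, and at 0.30, 0.74 and 0.68 in the other. Rims2 was at 0.0395, 0.47 and 0.46 in control and at 0.00796, 0.45 and 0.44 in the other. Library totals shift all genes of a comparison together, by 0.55 in control, and the cause of the TPM values was not tested.

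Between genotypes in pulldown, the 2 members higher became 0 with library totals, both limma fits and rescaled counts, 4 without pools 1 and 5, and 0 to 3 without 1 pool. Against 0 lower as reported, all 16 libraries in one fit gave 1, DESeq2 2, no filter 1, leaving out pools 1 and 5 gave 19, and leaving out 1 pool 0 to 6. In input, the 1 member lower became 0 with all 16 libraries, both limma fits and rescaled counts, and 0 to 4 without 1 pool. The interaction gave 1 member higher without pools 1 and 5, which were singled out by their values. The causes were not tested. Counts under the level of 3 per library limit what can be said of Unc13d, Syt8 and Cplx4.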
